A study of Mus musculus with 18 samples.

Results

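Interleukins and their receptors were examined in whole mouse colon by RNA sequencing. The members are the 77 genes, of 36451 in the deposited table, whose symbol starts with Il and a digit; an antisense RNA, Il1bos, also carries such a symbol and was left out. They comprise 33 ligands, 37 receptor chains, 6 inhibitors or decoy receptors and 1 enzyme, Il4i1, which is named for its induction by interleukin-4. The 18 libraries form 3 groups of 6. Control colon came from untreated male C57BL/6J mice stated to be 6 weeks old. The group named Model drank 3% dextran sulfate sodium (DSS) for 1 week and received buffered saline by gavage. DSS is a polymer that injures the colon lining and is widely used to produce colitis in mice. The group named AKK was given the mucus-dwelling bacterium Akkermansia muciniphila, in weekly gavages of 0.1 mL over 6 weeks. A strain and an age are stated under Control only, and whether AKK mice also drank DSS is not stated. Nothing ties the libraries to separate animals either, so p-values here cover the spread between libraries, which may be technical. The submitters describe a study of whether the bacterium acts on colitis through ferroptosis, an iron-dependent form of cell death, and mention the ferroptosis inducer Erastin, which none of the 18 libraries names as its treatment.

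Interleukins are secreted proteins through which immune cells, epithelium and stroma signal to one another. Most bind receptors made of a chain specific to the cytokine and a chain shared by a family, such as the common gamma chain or gp130, and signal through Janus kinases and STAT transcription factors; members of the IL-1 and IL-17 families use adaptor proteins and NF-kappaB instead. Several are held in check outside the cell by soluble binding proteins, receptor antagonists or decoy receptors. In the colon, IL-1 and IL-6 family cytokines are known for inflammation, IL-22 for defence and repair of the epithelium, and IL-10 for restraint of inflammation.

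Most members were scarce. Levels are given as FPKM, a fragment count scaled by transcript length and library size, which is a scale per length on which genes can be compared. The median over the 18 libraries was at least 10 FPKM for 6 members, between 1 and 10 for 26 and under 1 for 45. The 6 were 5 receptor chains and a cytokine: the IL-13 receptor chain Il13ra1 at 35.1, the IL-17 receptor chain Il17rc at 32.1, the IL-10 and IL-22 receptor chain Il10rb at 22.3, the epithelial cytokine Il18 at 21.9, the IL-4 receptor Il4ra at 14.9 and the gp130 chain Il6st at 13.03 FPKM. These medians span ranges over libraries that overlap between neighbours in the order. A test was made only for members with at least 20 counts in at least 6 libraries: 58 members passed and 19 did not. Of the 19, 15 were ligands, among them Il13, Il17a, Il17f, Il22 and Il5, 3 were receptors (Il1rapl1, Il23r and Il31ra) and the last was the antagonist Il1f5.

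The library Model_1337 stood apart in the Model group. Totals ran from 53873744 to 65705141 counts in Control, from 58841661 to 79147073 in Model and from 60665457 to 82589848 in AKK. Of the 77 members, 43 had their highest FPKM in Model_1337 and 11 in Model_1340. The summed FPKM of 9 squamous epithelium markers was 6163 in Model_1337 and at most 2.43 in every other library. The summed colon epithelium markers were 723 there against 2910 to 13184 elsewhere, and the summed neutrophil markers were 815 there against at most 151.3 elsewhere. Mitochondrial genes held 16.99% of the counts of Model_1341 and 3.93% to 8.59% in the other libraries. Results are therefore given with and without Model_1337 where it decides them. The part of squamous tissue in those results was not tested beyond leaving that library out.

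**Figure D1:**
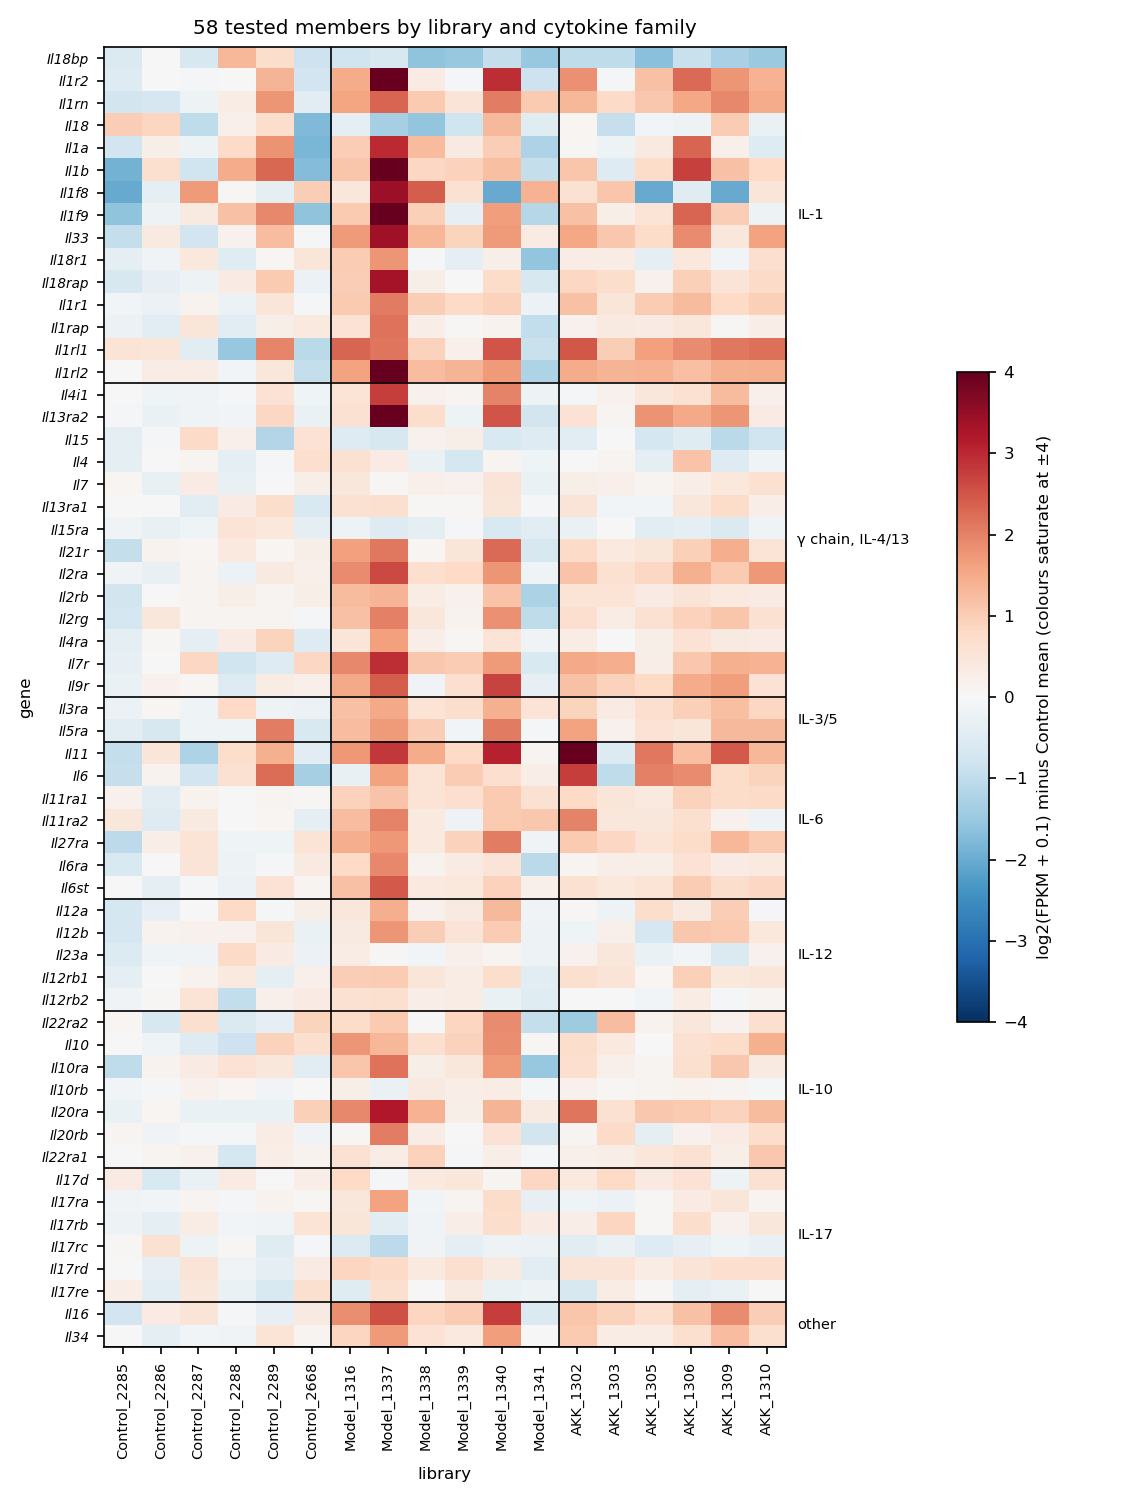
Heat map of the 58 tested members (one per line, grouped by cytokine family) in the 18 libraries (columns, by group); colour is log2(FPKM + 0.1) minus the Control mean of that gene and saturates at a difference of 4. Model_1337 holds the deepest red for many members, Model_1341 resembles Control for many, and Il18bp at the top is blue in all 12 Model and AKK libraries.

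Model was compared with Control to ask how the members differed between them. Control was untreated while Model had both DSS and saline gavage, and strain and age are stated for Control only. DSS therefore cannot be told apart from gavage, strain or age in this comparison. Of the 58 tested members 19 were higher in Model and 1, Il18bp, was lower by edgeR's quasi-likelihood test at a Benjamini-Hochberg adjusted p under 0.05. That is 34.5% of them, against 18.4% of all 18945 genes tested; 11.0% of all genes were called higher and 7.36% lower. Higher calls made up 59.9% of all calls, 76.8% when libraries were scaled by their totals alone and 44.3% after quantile normalization. The median log2 fold change was 0.89 over the 58 members and 0.01 over all genes tested, and 50 members lay above 0 and 8 below. Without Model_1337 the calls fell to 7 higher and 1 lower, and all 8 were among the first 20. The share of members called was then close to that of all genes, so the excess seen with all 18 libraries was lost. Higher calls made up 50.0% of the calls over all genes in that fit. The median was 0.51 over the members and 0.004 over all genes. The count of higher members was 9 without Control_2286 or without Control_2288, 11 without Model_1340 and 12 without Control_2285 or without Control_2287; members lower numbered 2 without Control_2289, Control_2668 or Model_1339. Without Model_1341 there were 25 higher and 3 lower, beside 2555 and 1701 of all 18945 genes. Without Model_1337 and Model_1341 together, a choice made after their values were seen, 16 were higher and 1 lower (1758 and 1379 of all genes). Without the Control libraries Control_2288 and Control_2289, likewise chosen afterwards, 9 were higher and 1 lower (903 and 522 of all genes). In a fit of Model and Control alone, without AKK to inform the spread, only 3 were higher and 1 lower (631 and 230 of all genes). The calls of 6 members held whichever of the 18 libraries was left out: Il18bp, Il1r1, Il2ra, Il3ra, Il11ra1 and Il16.

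**Figure D2:**
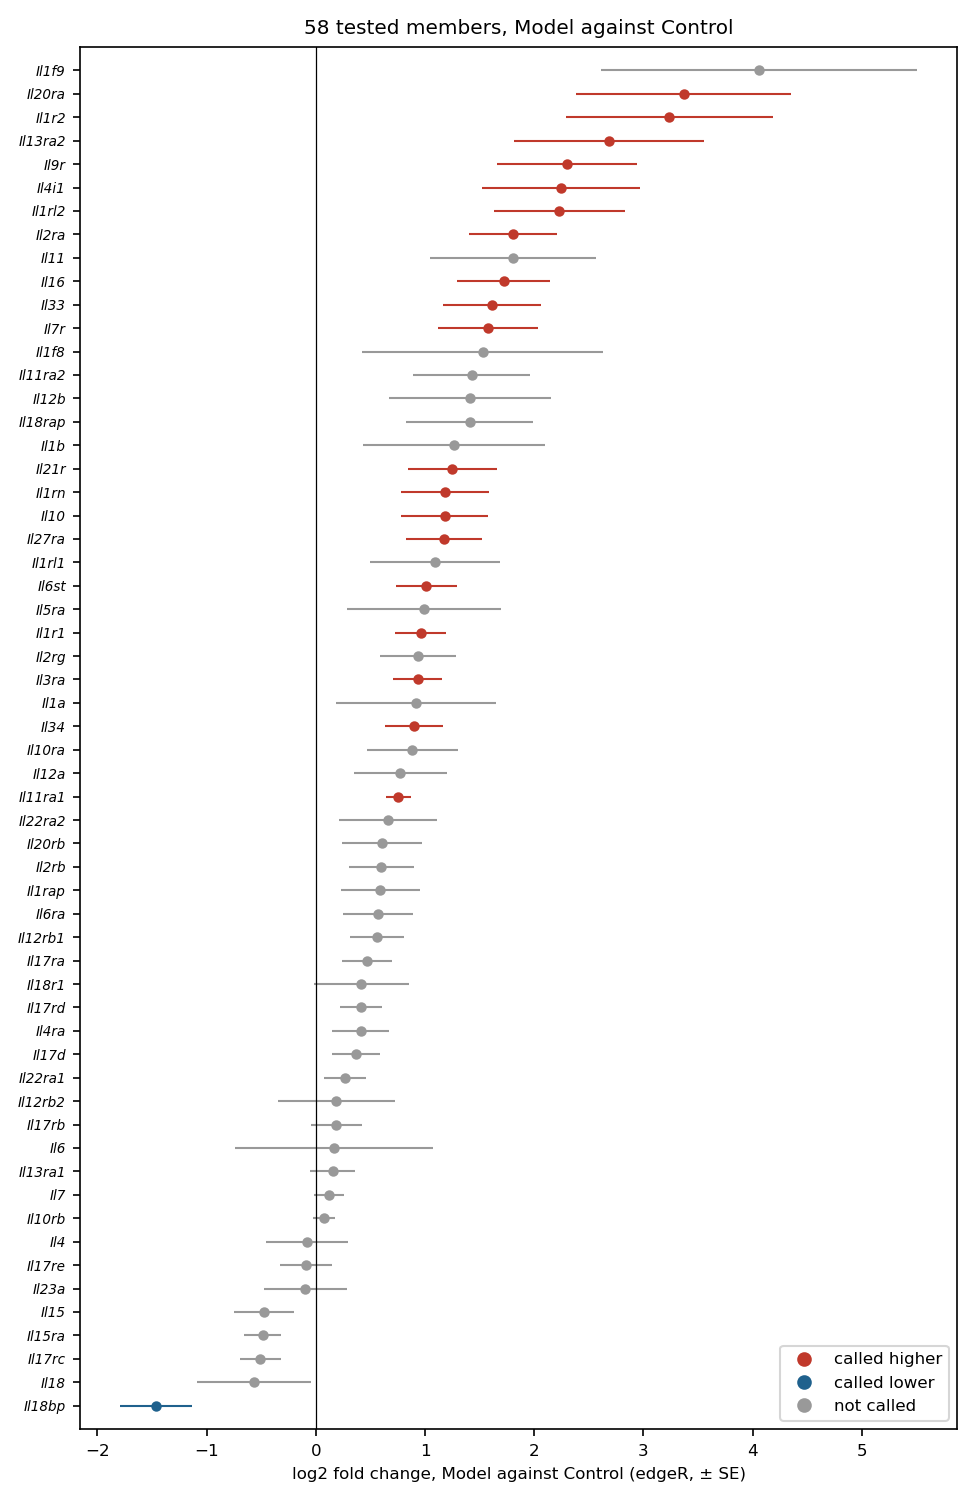
log2 fold change of each of the 58 tested members in Model against Control (horizontal axis, points with standard errors worked out from edgeR's F statistic), sorted by size. Red marks the 19 called higher, blue the 1 called lower and grey those without a call; Il1f9 at 4.06 has the largest fold change and no call, and Il18bp at -1.46 stands alone at the bottom.

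Whole tissue was sequenced, so a change in the number of cells of a type cannot be told apart from a change in RNA per cell. Markers of several cell types moved with the members. For scale, 11.0% of all genes tested were called higher in Model and 7.36% lower. The summed T cell markers had a lowest, median and highest value of 4.04, 8.11 and 11.0 FPKM in Control, 4.40, 18.8 and 28.1 in Model and 12.1, 14.9 and 17.7 in AKK, and 4 of 8 were called higher in Model. All 5 B cell markers were called higher in Model, with sums of 2.96, 3.89 and 6.47 FPKM in Control and 7.51, 25.9 and 153.5 in Model. Of the other lists, 3 of 6 macrophage, 1 of 5 neutrophil, 5 of 6 mast cell, 2 of 6 innate lymphoid, 4 of 5 fibroblast, 3 of 3 endothelial and 1 of 4 smooth muscle markers were called higher in Model, as were all 5 tested squamous markers, and none was lower. No marker of colon epithelium, tuft cells or eosinophils was called. Without Model_1337 the counts were 1 of 6 for macrophages, 0 of 5 for neutrophils, 0 of 6 for innate lymphoid cells and 1 of 5 for squamous epithelium. Without Model_1341 they were 5 of 6 for macrophages, 5 of 5 for neutrophils and 2 of 3 for eosinophils, and 1 colon epithelium marker was lower. Over all omissions of 1 library the higher calls ran from 1 to 5 for macrophages, 0 to 5 for neutrophils, 0 to 3 for innate lymphoid cells and 1 to 3 for smooth muscle. The part of these cells in the members' differences was not tested.

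Among the IL-1 family, 15 of 19 members were tested in Model against Control, 5 were higher and 1 lower, with a median log2 fold change of 1.18. Without Model_1337 only Il1r1 remained higher, Il18bp remained lower and the median was 0.23. The family's members were a mixture of cytokine, receptor and inhibitor genes, and they are taken in that order.

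Il33, an alarmin held in the nuclei of epithelial and stromal cells, was higher in Model. Its lowest, median and highest FPKM were 2.196, 4.53 and 10.2 in Control, 5.46, 12.6 and 45.8 in Model and 5.93, 11.02 and 16.3 in AKK, the order used for all such values below. Every Model library lay above the Control median and 4 lay above the highest Control library, Control_2289. For Il33 the log2 fold change in Model was 1.61 ± 0.45 (SE; edgeR adjusted p = 0.0222), and it fell to 1.03 with an adjusted p of 0.06 without Model_1337, which carried the highest value. Il1b, the main secreted IL-1 of myeloid cells, had FPKM values of 1.36, 5.73 and 26.4 in Control, 2.72, 10.9 and 104 in Model and 3.701, 10.5 and 35.98 in AKK. Its groups overlapped across most of their range and 1 Model library alone, Model_1337, exceeded the highest Control library. The Il1b log2 fold change of 1.26 ± 0.83 (SE; edgeR adjusted p = 0.297) became -0.10 without Model_1337. An antisense RNA over the gene, Il1bos, reached at most 0.435 FPKM. Il1f9, which encodes the epithelial cytokine IL-36 gamma, read 0, 0.229 and 1.06 FPKM in Control and 0.0393, 0.514 and 38.01 in Model. For Il1f9 the log2 fold change of 4.06 ± 1.45 (SE; edgeR adjusted p = 0.0594) rested on Model_1337, and the adjusted p lay under 0.05 without Model_1338 (0.0473), Model_1339 (0.0433) or Model_1341 (0.0354). Il18, an epithelial cytokine matured by caspases, read 7.47, 35.6 and 50.9 in Control, 8.45, 16.6 and 63.6 in Model and 13.4, 22.9 and 51.8 in AKK FPKM. The library Model_1340 lay above all Control libraries and 5 of 6 lay below the Control median, with a log2 fold change of -0.57 ± 0.52 (SE; edgeR adjusted p = 0.465).

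The receptor Il1r1, which transmits IL-1 signals, was higher in Model. It read 4.16, 4.59 and 6.84 in Control, 4.16, 9.51 and 20.8 in Model and 6.87, 9.85 and 11.9 in AKK FPKM, so 5 Model libraries lay above the highest Control library and Model_1341 lay at the lowest Control level. The Il1r1 log2 fold change was 0.96 ± 0.23 (SE; edgeR adjusted p = 0.0125) and 0.68 (0.0179) without Model_1337. Il1rl2, the receptor for IL-36 cytokines, read 0.133, 0.406 and 0.527 in Control, 0.0919, 1.18 and 7.11 in Model and 0.943, 1.11 and 1.17 in AKK FPKM. Again 5 Model libraries exceeded all Control libraries and Model_1341 lay below them. For Il1rl2 the log2 fold change of 2.23 ± 0.60 (SE; edgeR adjusted p = 0.0192) became 1.23 (0.06) without Model_1337. The other tested receptors of the family, Il1rap, Il1rl1, Il18r1 and Il18rap, had no call in this comparison.

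Inhibitors of the family went in both directions. Il18bp, the secreted protein that binds IL-18 and keeps it from its receptor, was the only member called lower. It read 4.52, 6.66 and 20.2 in Control, 2.55, 3.44 and 5.14 in Model and 2.42, 3.55 and 4.29 in AKK FPKM, and the 2 highest Control values came from Control_2288 and Control_2289. Every Model library lay below the Control median, while the highest Model values overlapped the lowest Control values. The Il18bp log2 fold change was -1.46 ± 0.33 (SE; edgeR adjusted p = 0.00893), it kept its call whichever single library was left out, and it was -0.77 (0.0454) without Control_2288 and Control_2289 together. Il1rn, the IL-1 receptor antagonist, read 2.55, 3.4 and 14.7 in Control, 6.16, 11 and 22.1 in Model and 7.396, 11.6 and 16.5 in AKK FPKM. All 6 Model libraries lay above the Control median, and Control_2289 lay among the highest Model libraries. For Il1rn the log2 fold change of 1.18 ± 0.40 (SE; edgeR adjusted p = 0.0488) lost its call in 15 of 18 omissions of 1 library, with adjusted p values of 0.0516 to 0.111, and it was 2.00 (0.0054) without Control_2288 and Control_2289. Il1r2, a decoy receptor that binds IL-1 without signalling, read 0.261, 0.497 and 1.47 FPKM in Control and 0.249, 1.14 and 30.7 in Model. Model_1337 held the highest value and 3 Model libraries lay above Control. The Il1r2 log2 fold change of 3.24 ± 0.95 (SE; edgeR adjusted p = 0.027) was 1.27 (0.184) without Model_1337, and the call was also lost without Control_2285 (0.052), Control_2286 (0.0591), Control_2287 (0.0511) or Control_2288 (0.0554).

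**Figure D3:**
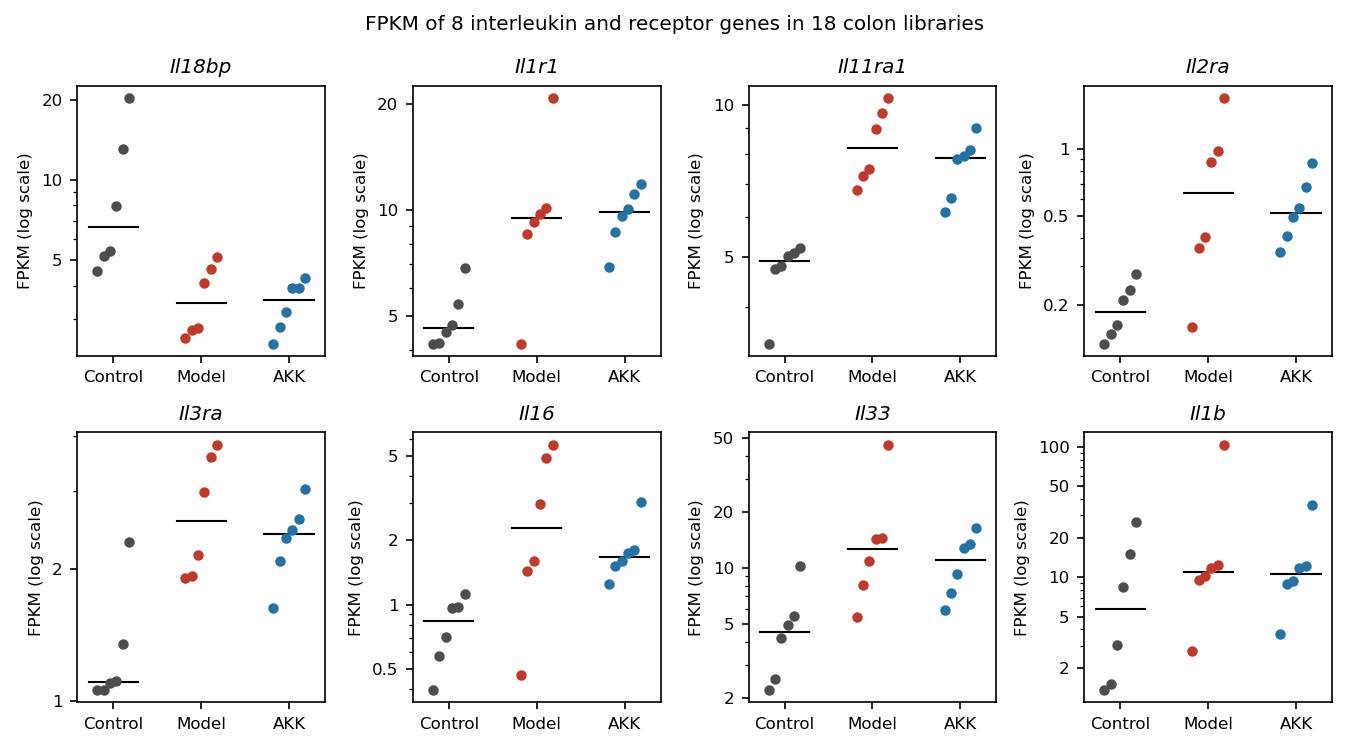
FPKM of 8 members in each library (points, log scale) in Control, Model and AKK, with a bar at each group's median. Il18bp is lower in Model and AKK than in Control. The receptor genes and Il16 are higher, with 1 Model library often at the Control level. For Il1r1, Il33 and Il1b, 1 Model library stands far above the others.

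Promoter sequences are shown for the members whose call held in every omission and whose RefSeq start lies within 50 bases of the deposited start. These are Il18bp, lower in Model, and the receptors Il1r1 and Il2ra, higher in Model. Each line gives the 250 bases before the transcription start, 5′ to 3′ on the gene's strand, from RefSeq on GRCm38.p6, at chr7:102018233-102018482 (minus strand) for Il18bp, chr1:40224830-40225079 (plus strand) for Il1r1 and chr2:11642542-11642791 (plus strand) for Il2ra. Capitals mark a match to the C/EBP motif TTGCNNAA on either strand, where N is any base.
Il18bp: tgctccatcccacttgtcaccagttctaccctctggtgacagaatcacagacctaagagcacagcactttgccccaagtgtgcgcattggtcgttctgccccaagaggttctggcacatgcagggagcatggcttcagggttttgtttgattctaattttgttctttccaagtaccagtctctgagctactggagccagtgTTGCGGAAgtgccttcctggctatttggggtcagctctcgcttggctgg
Il1r1: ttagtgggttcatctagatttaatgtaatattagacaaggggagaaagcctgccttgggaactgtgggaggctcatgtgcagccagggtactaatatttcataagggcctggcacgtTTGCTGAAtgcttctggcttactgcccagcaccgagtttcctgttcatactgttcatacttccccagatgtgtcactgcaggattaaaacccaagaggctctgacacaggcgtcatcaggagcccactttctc
Il2ra: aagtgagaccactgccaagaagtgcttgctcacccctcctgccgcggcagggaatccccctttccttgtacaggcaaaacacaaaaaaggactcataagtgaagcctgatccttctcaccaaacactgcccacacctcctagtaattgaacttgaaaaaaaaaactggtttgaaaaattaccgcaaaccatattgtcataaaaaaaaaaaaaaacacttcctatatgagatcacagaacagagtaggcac
The match lay at bases -49 to -42 from the start in Il18bp and at -133 to -126 in Il1r1. A gene lower in Model and one higher in Model therefore both hold it. The search covered 4 motifs on both strands, in windows of 300 bases that add the first 50 of the transcript, over 27025 genes and the 60 members with a window. The C/EBP motif was found in 12.2% of all genes and in 15 of the 60 members (25.0%). The AP-1 motif TGANTCA was found in 8.97% of all genes and in 13 members (21.7%), the STAT motif TTCNNNGAA in 9.55% and in 10 members (16.7%), and the TATA box TATAAA in 15.7% and in 13 members (21.7%). The Il2ra window before the start holds none of the 4 motifs in these letters. Of the 16 members called higher that have a window, 6 held the C/EBP motif, 4 the AP-1 motif, 2 the STAT motif and 4 the TATA box. A match describes letters and is not evidence of binding.

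Of the common gamma chain family together with IL-4 and IL-13, 14 of 17 members were tested and 6 were higher in Model, with a median log2 fold change of 0.77; without Model_1337 2 were higher. The 6 comprised 4 receptor chains, the decoy receptor Il13ra2 and the enzyme Il4i1. Il2ra, the high-affinity IL-2 receptor chain of activated and regulatory T cells, read 0.134, 0.186 and 0.275 in Control, 0.159, 0.639 and 1.696 in Model and 0.346, 0.518 and 0.869 in AKK FPKM. In 5 Model libraries it lay above all Control libraries, and Model_1341 lay within the Control range. For Il2ra the log2 fold change was 1.81 ± 0.40 (SE; edgeR adjusted p = 0.00885), and 1.42 (0.0161) without Model_1337. Il7r, the IL-7 receptor of lymphocytes, read 0.294, 0.517 and 1.14 in Control, 0.349, 1.75 and 5.26 in Model and 0.731, 1.72 and 1.87 in AKK FPKM with the same arrangement of libraries. The Il7r log2 fold change of 1.57 ± 0.46 (SE; edgeR adjusted p = 0.0267) became 1.12 (0.0741) without Model_1337, and the call was lost without Control_2285 (0.0515), Control_2286 (0.0555), Control_2288 (0.058) or Control_2289 (0.0535). Il9r, the IL-9 receptor, read 0.0215, 0.0897 and 0.1102 FPKM in Control and 0.0376, 0.282 and 1.02 in Model. In 4 Model libraries it lay above all Control libraries, and the highest was Model_1340. For Il9r the log2 fold change of 2.30 ± 0.64 (SE; edgeR adjusted p = 0.0227) lost its call without Model_1340 (0.0604).

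Il21r, the IL-21 receptor of B and T cells, read 0.4996, 1.17 and 1.43 FPKM in Control and 0.6502, 2.52 and 5.53 in Model. The Il21r log2 fold change was 1.25 ± 0.41 (SE; edgeR adjusted p = 0.0425), and its call was lost in 13 of 18 omissions, with adjusted p values of 0.0509 to 0.114. Il13ra2, which in the mouse binds IL-13 largely as a decoy, read 0.0734, 0.0949 and 0.271 FPKM in Control and 0.02695, 0.231 and 3.69 in Model. Model_1337 again stood far above the rest, and the log2 fold change of 2.69 ± 0.87 (SE; edgeR adjusted p = 0.0401) was 1.35 (0.204) without it. The call was also lost without Model_1340 (0.066) and without Control_2285, Control_2286, Control_2287, Control_2288 or Control_2668, where the adjusted p lay between 0.0639 and 0.0853. The sixth, Il4i1, an amino acid oxidase of myeloid and B cells, read 0.0186, 0.0249 and 0.09897 FPKM in Control and 0.0159, 0.0739 and 0.818 in Model. It stayed under 1 FPKM in every library, and its log2 fold change of 2.25 ± 0.72 (SE; edgeR adjusted p = 0.0392) was 1.43 (0.141) without Model_1337. Its call was also lost without Model_1340 (0.0803) and without any Control library but Control_2289 (0.0626 to 0.0856), and its span shares the strand and 14426 bases with Nup62. The common gamma chain itself, Il2rg, read 3.34, 5.899 and 7.52 FPKM in Control and 2.66, 9.98 and 22.6 in Model without a call.

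Of the IL-6 family, 7 of 9 members were tested and 3 receptor chains were higher in Model; without Model_1337 2 were. Il11ra1, the receptor for IL-11 on stromal cells, read 3.38, 4.93 and 5.22 in Control, 6.81, 8.22 and 10.3 in Model and 6.16, 7.88 and 9.001 in AKK FPKM. It was the only member whose Model and Control ranges did not overlap, where 1.53% of all genes tested were higher without overlap. For Il11ra1 the log2 fold change was 0.75 ± 0.11 (SE; edgeR adjusted p = 0.00142), the smallest p among the members, and it ranged from 0.67 to 0.80 over the omissions of 1 library. Il11ra1 has a near copy, Il11ra2, and its deposited span overlaps Galt on the same strand over 3468 bases, so reads could be shared between them. Il6st, the shared gp130 chain, read 7.16, 8.91 and 13.8 in Control, 10.5, 14.8 and 50.4 in Model and 12.5, 14.7 and 18.8 in AKK FPKM. All Model libraries lay above the Control median and 3 lay above all Control libraries. The Il6st log2 fold change of 1.01 ± 0.28 (SE; edgeR adjusted p = 0.0226) was 0.57 (0.0282) without Model_1337, and the call was lost without Control_2286 (0.0526). Il27ra, the IL-27 receptor chain of lymphocytes, read 0.215, 0.587 and 0.859 FPKM in Control and 0.491, 1.41 and 2.597 in Model. For Il27ra the log2 fold change of 1.18 ± 0.35 (SE; edgeR adjusted p = 0.0289) lost its call without Control_2288 (0.0607), Control_2289 (0.056), Model_1316 (0.0517), Model_1337 (0.0562) or Model_1340 (0.0743).

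The ligands of that family had no call. Il6, an acute-phase cytokine, read 0, 0.111 and 1.07 in Control, 0.102, 0.282 and 0.659 in Model and 0.0234, 0.592 and 1.59 in AKK FPKM, with the highest Control value in Control_2289 and the highest of all in AKK_1302. The Il6 log2 fold change in Model was 0.16 ± 0.91 (SE; edgeR adjusted p = 0.918), and its sign turned in several omissions. Il11, a cytokine of stromal cells in injured tissue, read 0.0833, 0.365 and 1.07 in Control, 0.368, 1.22 and 3.56 in Model and 0.194, 1.37 and 6.77 in AKK FPKM. In 4 Model libraries Il11 lay above all Control libraries and AKK_1302 held the highest value, and the log2 fold change in Model was 1.80 ± 0.76 (SE; edgeR adjusted p = 0.104).

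Il3ra, the IL-3 receptor chain of mast cells, basophils and progenitors, was higher in Model and Il5ra, the eosinophil IL-5 receptor, had no call. Il3ra read 1.06, 1.104 and 2.297 in Control, 1.903, 2.57 and 3.82 in Model and 1.63, 2.398 and 3.04 in AKK FPKM. All Model libraries lay above the Control median, and 1 Control library, Control_2288, lay among them. For Il3ra the log2 fold change was 0.93 ± 0.23 (SE; edgeR adjusted p = 0.0127). Both cytokines outside these families were higher as well. Il16, a chemoattractant for CD4+ cells, read 0.396, 0.833 and 1.12 in Control, 0.466, 2.28 and 5.62 in Model and 1.25, 1.67 and 3.03 in AKK FPKM. In 5 Model libraries Il16 lay above all Control libraries, and Model_1341 lay within the Control range. The Il16 log2 fold change was 1.72 ± 0.43 (SE; edgeR adjusted p = 0.0139) and 1.52 (0.0278) without Model_1337. Il34, a ligand of the macrophage receptor Csf1r, read 2.53, 3.25 and 4.94 in Control, 3.32, 5.65 and 11.3 in Model and 4.12, 5.31 and 8.14 in AKK FPKM. For Il34 the log2 fold change of 0.90 ± 0.26 (SE; edgeR adjusted p = 0.0267) lost its call without Control_2286 (0.0626), Control_2287 (0.0508), Control_2288 (0.0546), Model_1337 (0.0623) or Model_1340 (0.0677).

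In the IL-10 family, 7 of 10 members were tested and 2 were higher in Model; without Model_1337 none was. Il10, the cytokine that restrains inflammation, read 0.125, 0.275 and 0.669 in Control, 0.316, 0.794 and 1.35 in Model and 0.306, 0.536 and 0.9805 in AKK FPKM. All Model libraries lay above the Control median and 3 lay above all Control libraries. The Il10 log2 fold change of 1.18 ± 0.40 (SE; edgeR adjusted p = 0.0491) lost its call in 13 of 18 omissions, with adjusted p values of 0.0508 to 0.112. Il20ra, a receptor chain for IL-19, IL-20 and IL-24, read 0, 0 and 0.131 FPKM in Control and 0.0407, 0.209 and 1.01 in Model. Control_2668 was the Control library with the highest value. For Il20ra the log2 fold change of 3.37 ± 0.98 (SE; edgeR adjusted p = 0.0267) was 5.30 without Control_2668 and 2.57 (0.0699) without Model_1337, and the call was also lost without Control_2286 (0.0559) or Control_2288 (0.0546). The IL-22 receptor chain Il22ra1 and the soluble IL-22 binding protein Il22ra2 had no call.

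No member of the IL-12 or IL-17 family was called in Model against Control, with 5 of 6 and 6 of 11 members tested. The smallest p in the IL-12 family belonged to Il12rb1, a chain shared by the IL-12 and IL-23 receptors, at a log2 fold change of 0.56 ± 0.25 (SE; edgeR adjusted p = 0.115); it was called without Model_1341 (0.0364). Il23a, the specific chain of IL-23, read 0.0453, 0.0892 and 0.258 FPKM in Control and 0.08401, 0.124 and 0.161 in Model. At these levels its log2 fold change of -0.09 ± 0.38 (SE; edgeR adjusted p = 0.886) changed sign between settings. Il17rc, a chain of the receptor for IL-17A and IL-17F, read 27.3, 37.9 and 58.3 in Control, 18.3, 30.6 and 34.4 in Model and 26.4, 30.9 and 33.9 in AKK FPKM. Every Model library lay below the Control median, and the log2 fold change of -0.51 ± 0.19 (SE; edgeR adjusted p = 0.0717) passed the test, of the omissions of 1 library, without Control_2289 (0.0461) or Model_1341 (0.0356).

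Several cytokines central to colitis were too scarce for the test, and their values rest on few reads. Il22, made by lymphocytes and acting on epithelium, read 0, 0.459 and 4.67 in Control, 0, 0 and 0.104 in Model and 0, 0.0561 and 0.471 in AKK FPKM. It was highest in Control_2289, and its Control median exceeded the highest Model library. A fit without the filter gave a log2 fold change of -5.31 in Model (edgeR adjusted p = 0.0437). A near copy, Iltifb, reached at most 0.164 FPKM. Il17a, the cytokine of Th17 cells, was listed at 0 in 5 Control libraries and read 0, 0.0778 and 0.985 FPKM in Model and 0, 0.253 and 0.743 in AKK. The epithelial cytokines Il1f6 (IL-36 alpha) and Il17c reached 4.33 FPKM in Model_1337 and 1.40 FPKM in AKK_1310. The IL-36 antagonist Il1f5 was listed at 0 in 16 libraries and reached 1.09 FPKM in Model_1337. Il21, a cytokine of helper T cells, reached at most 0.209 FPKM and had a log2 fold change of 3.71 (0.0421) without the filter.

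**Figure D4:**
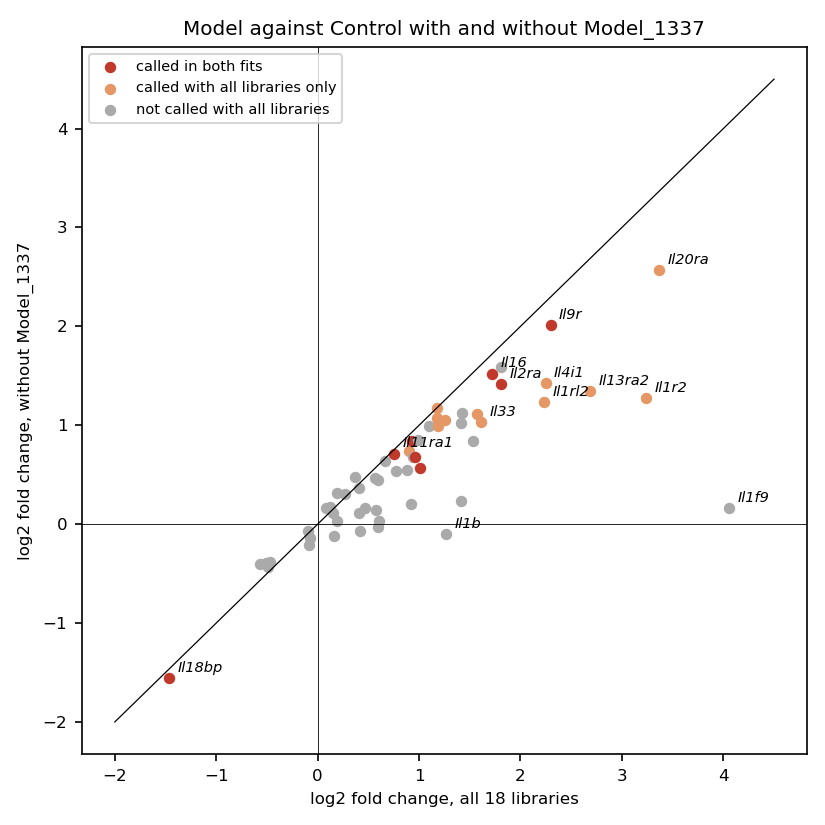
log2 fold change of each tested member in Model against Control with all 18 libraries (horizontal axis) and without Model_1337 (vertical axis); the diagonal marks equality and red points were called in both fits. Most members lie below the diagonal, Il1f9 drops from 4.06 to near 0, Il1b drops from 1.26 to -0.10, and Il18bp stays below 0.

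The AKK group was next compared with Control. AKK was gavaged while Control was untreated, and whether AKK mice also drank DSS is not stated. The bacterium therefore cannot be told apart from gavage, DSS, strain or age in this comparison. The same 6 Control libraries served here and in the comparison with Model, so the values of both are given side by side and are not independent. Of the 58 tested members 2 were higher and 1 was lower. By edgeR 20 members had an unadjusted p under 0.05, beside 4463 of all 18945 genes. The share called was 5.2%, against 4.63% of all genes, of which 2.63% were called higher and 2.01% lower. The median log2 fold change of the members was 0.45 and that of all genes -0.02, or 0.58 and 0.11 with libraries scaled by their totals alone. Higher calls made up 56.7% of all calls over all genes and 87.1% on that scaling. In AKK 7 members were higher without overlap of the FPKM ranges (6.89% of all genes were) and 1 was lower without overlap (0.781% of all genes). The 7 were Il11ra1, Il16, Il1r1, Il1rl2, Il2ra, Il2rb and Il9r, and the 1 was Il18bp. The highest AKK value of Il18bp, 4.29 FPKM, lay under the lowest Control value, 4.52 FPKM.

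Il18bp had a log2 fold change of -1.60 ± 0.33 (SE; edgeR adjusted p = 0.0156) in AKK against Control, beside -1.46 ± 0.33 in Model against Control. It kept this call without each single library and became -0.89 (0.0606) without Control_2288 and Control_2289 together. Il11ra1 had a log2 fold change of 0.56 ± 0.11 (SE; edgeR adjusted p = 0.0151) and kept its call in all 18 omissions, beside 0.75 ± 0.11 in Model. Il1r1 had a log2 fold change of 0.84 ± 0.23 (SE; edgeR adjusted p = 0.0476), beside 0.96 ± 0.23 in Model. Its call was held only without Control_2289, Control_2668, Model_1337, Model_1341 or AKK_1303, and in the other 13 omissions the adjusted p lay between 0.0538 and 0.1. These 3 genes therefore lay at similar FPKM medians in Model and AKK: 3.44 and 3.55 for Il18bp, 8.22 and 7.88 for Il11ra1, and 9.51 and 9.85 for Il1r1.

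Il2ra missed the threshold in AKK with a log2 fold change of 1.38 ± 0.40 (SE; edgeR adjusted p = 0.0537), and was called without Control_2668 (0.0478), Model_1337 (0.0188) or Model_1341 (0.0226). Il16 at 1.08 ± 0.42 (SE; edgeR adjusted p = 0.134), Il9r at 1.75 ± 0.63 (SE; edgeR adjusted p = 0.109) and Il1rl2 at 1.39 ± 0.59 (SE; edgeR adjusted p = 0.16) had no call despite ranges that did not overlap; Il1rl2 was called without Model_1337 (0.0363). Il3ra read 1.63, 2.398 and 3.04 FPKM in AKK, and its log2 fold change of 0.68 ± 0.23 (SE; edgeR adjusted p = 0.0843) was called without Control_2288 (0.0275). Il33 read 5.93, 11.02 and 16.3 FPKM in AKK. Every AKK library lay above the Control median, and the log2 fold change was 0.9995 ± 0.44 (SE; edgeR adjusted p = 0.181). Il20ra had a log2 fold change of 2.66 ± 0.97 (SE; edgeR adjusted p = 0.111), and 4.61 (0.0152) without Control_2668. Il11 at 2.16 ± 0.77 (SE; edgeR adjusted p = 0.102) and Il17rc at -0.51 ± 0.19 (SE; edgeR adjusted p = 0.116) had no call, and Il17rc was called without Model_1337 (0.0468). Il1rn was called at 1.59 (0.00962) without Control_2289, and Il6st at 0.56 (0.0292) without Model_1337.

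The count of higher members in AKK was 4 without Control_2289 (384 of all genes) or without Control_2668 (725) and 5 without Model_1337 (1133). Members lower numbered 2 without Control_2289 (217 of all genes) or without Model_1337 (1153). A fit of AKK and Control alone called 8 members higher and 2 lower, beside 1566 and 1374 of all 18945 genes. Without Model_1337 and Model_1341 the count was also 8 higher and 2 lower, beside 1421 and 1349 of all genes. Those 2 libraries are no part of the groups compared but enter the shared fit and its scaling. In both fits the share of members called, over both directions together, was close to that of all genes. The 8 higher without Model_1337 and Model_1341 were Il1r1, Il1rl2, Il11ra1, Il2ra, Il6st, Il7r, Il16 and Il9r, and the 2 lower were Il18bp and Il17rc. Without the libraries of over 70000000 counts no member was called (48 and 1 of all genes), and that setting leaves fewer AKK libraries. In AKK the called markers were 2 of 8 for T cells, 4 of 5 for B cells, 3 of 5 for fibroblasts and 2 of 3 for endothelium. All of these were higher, where 2.63% of all genes were, and no neutrophil, macrophage, mast cell or squamous marker was called. Over the omissions of 1 library the higher calls ran from 0 to 4 for T cells, 1 to 4 for B cells, 3 to 5 for fibroblasts, 0 to 3 for endothelium, 0 to 2 for macrophages, 0 to 2 for mast cells and 0 to 1 for neutrophils.

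**Figure D5:**
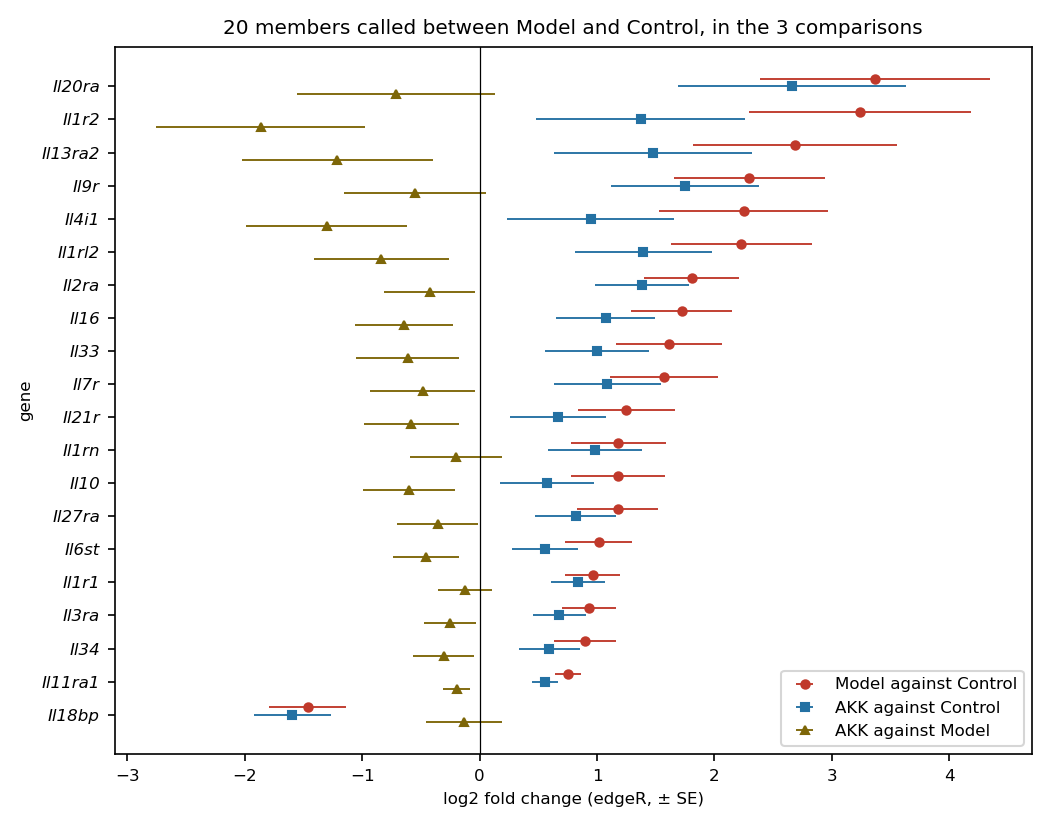
log2 fold changes with standard errors of the 20 members called in Model against Control (circles), in AKK against Control (squares) and in AKK against Model (triangles). The first and second comparisons share the Control libraries; Il18bp lies below 0 in both of them and the other 19 lie above 0, while all 20 triangles lie below 0 and none of those differences was called. Without Model_1337, which is included in the plot, 5 of those 20 (Il1r1, Il1rl2, Il1r2, Il13ra2 and Il20ra) lay above 0 in AKK against Model.

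AKK was compared with Model to ask how the members differed between them. The gavage differed between these groups, and no strain or age is stated for either. Whether AKK mice drank DSS is not stated, so the bacterium cannot be told apart from DSS, strain or age here. No member was called in either direction by edgeR, DESeq2 or limma, where edgeR called 2 of all 18945 genes (0.0106%). By edgeR 1 of 58 members had an unadjusted p under 0.05, beside 1416 of all genes. The median log2 fold change was -0.36 over the members and -0.03 over all genes, with 9 members above 0 and 49 below. No member had ranges free of overlap, where 0.57% of all genes were higher and 0.0633% lower without overlap. Without Model_1337 the median over the members was -0.03, beside -0.02 over all genes, and 24 members lay above 0 and 34 below. The direction turned without it for 15 members. The largest fold change, that of Il1f9, went from -3.53 ± 1.40 to 0.36 without it, and that of Il1r2 from -1.86 ± 0.89 to 0.10. Il1f8, the IL-36 beta gene and the second largest, had -2.11 ± 1.13 and -1.43 without Model_1337. Il1b went from -0.86 ± 0.82 to 0.50. The members called in both comparisons with Control showed small differences between AKK and Model, with log2 fold changes of -0.20 ± 0.11 (SE; edgeR adjusted p = 0.71) for Il11ra1, -0.13 ± 0.32 (SE; edgeR adjusted p = 0.937) for Il18bp and -0.12 ± 0.23 (SE; edgeR adjusted p = 0.914) for Il1r1. Il2ra had -0.42 ± 0.39 (SE; edgeR adjusted p = 0.798), Il16 -0.64 ± 0.42 (SE; edgeR adjusted p = 0.727) and Il33 -0.61 ± 0.44 (SE; edgeR adjusted p = 0.749). Il17ra, the chain shared by the IL-17 receptors, had -0.48 ± 0.23 (SE; edgeR adjusted p = 0.664), the smallest p in its family. These p-values do not show that AKK and Model were alike, since standard errors of 0.23 to 0.44 for Il1r1, Il2ra, Il16, Il18bp and Il33 leave room for changes of that order.

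Other genes of the same pathways were read from 5 lists. Their counts are to be read beside all genes tested, of which 11.0% were called higher and 7.36% lower in Model. In AKK against Control 2.63% of all genes were called higher and 2.01% lower. Of 14 partner cytokines and receptor chains whose symbols do not start with Il, 6 were higher in Model and none lower; 1 was higher in AKK. The count in Model was 2 without Model_1337, Model_1340, Control_2285, Control_2286 or Control_2288, 3 without Control_2287 or Model_1316, and 8 without Model_1341; that in AKK was 2 without Model_1337. Csf2rb2, the mouse chain that pairs with the IL-3 receptor, had a log2 fold change of 1.71 ± 0.51 (SE; edgeR adjusted p = 0.0287) in Model. That call was lost without Model_1337 (1.01, 0.0953), Model_1340 (0.0504) and Control_2285, Control_2286, Control_2287 or Control_2288 (0.0507 to 0.0568), and Csf2rb2 has a close paralog, Csf2rb. Of 14 adaptors of IL-1 and IL-17 signalling, none was called in any of the 3 comparisons with all 18 libraries. Omissions of 1 library gave at most 1 higher in Model, without Model_1341, and at most 1 higher and 2 lower in AKK against Control.

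Of 15 Janus kinases, STATs and SOCS inhibitors, 2 were higher in Model and none lower, a share called higher near that of all genes. Without Model_1337 0 were higher and 1 lower. Over the omissions of 1 library 0 to 3 were higher and 0 to 2 lower. Stat4, which acts below the IL-12 receptor, had a log2 fold change of 1.27 ± 0.42 (edgeR adjusted p = 0.0454), lost in 15 of 18 omissions (0.0505 to 0.116). Stat5b, which acts below the IL-2 receptor, had 0.41 ± 0.14 (0.04999), lost in 14 (0.0544 to 0.117). In AKK 1 gene of this list was lower and none higher, and omissions gave 0 to 3 lower.

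Of 14 genes that IL-22 or IL-17 induce in epithelium, 3 were lower in Model and 2 lower in AKK, and none was higher; omissions gave up to 3 higher in Model (without Control_2289), and 0 to 3 lower in AKK. Reg3b and Reg3g, bactericidal lectins induced by IL-22, had means of 6935 ± 5313 and 1671 ± 1478 FPKM in Control, 75.2 ± 88.2 and 25.0 ± 23.6 in Model and 213 ± 202 and 54.9 ± 43.4 in AKK. Their log2 fold changes in Model were -6.63 ± 1.41 (edgeR adjusted p = 0.00712) and -6.15 ± 1.23 (0.0055), called in every omission. In AKK they were -5.17 ± 1.31 (0.0348) and -5.08 ± 1.17 (0.0243), and the calls were lost in 8 and 6 of 18 omissions, with adjusted p values of up to 0.0767 and 0.0582. Fut2, a fucosyltransferase of the epithelium, was the third, at -1.40 ± 0.40 (0.0248), lost without Control_2286 (0.0514), Control_2288 (0.0548) or Control_2289 (0.0565). The other 11 genes of the list, S100a8, S100a9 and Lcn2 among them, had no call.

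Of 12 tested genes that IL-4 or IL-13 induce, 4 were higher in Model and none lower, and in AKK none was higher and 1 lower. The largest in Model was Arg1, an enzyme of alternatively activated macrophages, at 5.73 ± 1.40 (edgeR adjusted p = 0.0127), which was 0.77 (0.0955) without Model_1337. Alox15, a lipid oxygenase, had 1.76 ± 0.55 (0.0347) and 0.84 (0.147) without Model_1337, and lost its call in 6 further omissions. In AKK, Retnla, a secreted protein of the same macrophages, was lower at -3.38 ± 0.80 (0.027), lost in 6 omissions (0.0507 to 0.067). Without Model_1337 the list held 2 higher and 1 lower in Model, and 2 higher and 2 lower in AKK. None of the 5 lists held a called gene in AKK against Model. Some of their genes also stand in the marker lists, so the counts of the 2 kinds of list are not separate. Arg1 was also read as an innate lymphoid marker, Mrc1 for macrophages, Dclk1 for tuft cells, and S100a8 and S100a9 for neutrophils.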

How the data were processed

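Per the labels' protocols, polyadenylated RNA of colon was made into libraries that mark strand with dUTP and sequenced in pairs. The submitters' processing notes name cutadapt 1.9, HISAT2 2.2.1, StringTie 2.1.6, DESeq2, edgeR and the mouse build mm10, which is GRCm38; neither the annotation release nor the use of strand in counting is stated there. The deposited table gives, per the file headers, an FPKM and a count for each gene and library. The deposited counts are whole numbers in which multiples of 4 are over-represented (4 counts occurred 2.36 times as often as its neighbours) and are treated here as estimated counts, so the reads behind a value may be fewer than its count; this comes from the values, not from a stated method. All 36451 genes name a gene, and 0 columns belonged to other samples. No 2 libraries held identical values.

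The main test was edgeR 4.0.16 (quasi-likelihood, TMM scaling) on the counts, 1 fit over 18 libraries with a term for each group, for genes with at least 20 counts in at least 6 libraries, with Benjamini-Hochberg adjustment over all 18945 genes tested and calls at an adjusted p under 0.05. Fold changes are from that fit, and levels and ranges are the deposited FPKM. The test itself reports no standard error. Each SE of a fold change is an approximation, the absolute log2 fold change divided by the square root of its F statistic. The members and lists were chosen with earlier results of these data known. Members named were those called in any comparison, the one with the smallest p in each family without a call, a set of cytokines usual in colitis, the 5 highest below the filter and the 2 largest called genes of each pathway list, some of which are not reported here; Il15, Il15ra, Il21, Il2rg and other members named outside this rule were chosen after their values were seen. Alternatives were DESeq2, limma on log2(FPKM + 1) and log2(FPKM + 0.1), quantile normalization, scaling by totals, other filters, counts divided by 4, fits of 2 groups and omission of libraries. The edgeR and limma steps were tried on simulated counts for Model against Control only, with no library made to stand apart. The other steps and the omissions of libraries were not tried that way.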

Additional observations from a re-analysis of the deposited data

Results flagged for a closer look

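In each group of 6 libraries, the FPKM of 37 members were examined by Dixon's gap test for a single library that stands apart, by which chance picks out about 1 in 20 groups. Of 109 groups whose values varied 32 were picked out, 12 of them for Model_1337 and 8 for Control_2289.

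In Model_1337 the IL-1 family stood high: Il1b at 104.1 FPKM (2.72 to 12.5 in the other Model libraries), Il33 at 45.8, Il1f9 at 38.0, Il1r2 at 30.7, Il1r1 at 20.8, Il1rl2 at 7.11, Il1f6 at 4.33 and Il1f5 at 1.09 FPKM. The other 4 in that library were Il6st at 50.4, Il13ra2 at 3.69, Il20ra at 1.01 and Il17a at 0.985 FPKM. It is the library with the squamous and neutrophil markers, whose part was not tested beyond leaving it out.

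In Control_2289 the members that stood high were Il1rn at 14.7 FPKM, Il22 at 4.67, Il1r2 at 1.47, Il17c at 1.14, Il6 at 1.07, Il13ra2 at 0.271, Il17a at 0.099 and Il4i1 at 0.099 FPKM. Its summed neutrophil markers, 43.2 FPKM, were the highest of the Control group, where the median was 6.59, and their part was not tested.

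Of the rest, Il11 at 6.77 and Il20ra at 0.423 FPKM stood high in AKK_1302, Il1b at 36.0 and Il1f9 at 1.43 FPKM in AKK_1306, the AKK library with the highest neutrophil sum (151.3), and Il18 at 51.8 and Il16 at 3.03 FPKM in AKK_1309. Il22 stood high at 0.471 FPKM in AKK_1310, Il18 at 63.6 FPKM in Model_1340, Il3ra at 2.30 FPKM in Control_2288 and Il20ra at 0.132 FPKM in Control_2668. Il11ra1 stood low at 3.38 FPKM in Control_2286 and Il21r low at 0.4996 FPKM in Control_2285.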

How the results depend on the processing

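No paired analysis was possible because the groups share no replicate numbers. Leaving out 1 library at a time gave 7 to 25 members higher and 1 to 3 lower in Model against Control, 0 to 0 either way in AKK against Model, and 1 to 5 higher and 1 to 2 lower in AKK against Control. Over all genes the same omissions gave 1249 to 2555 higher and 763 to 1832 lower, then 1 to 5 higher and 0 to 0 lower, then 179 to 1133 higher and 78 to 1153 lower. Libraries whose omission moved a count over all genes by more than 1.5 times were Control_2286, Control_2288, Model_1316, Model_1337 and Model_1340 in Model against Control, Control_2289, Model_1316, Model_1338, AKK_1305 and AKK_1309 in AKK against Model, and Control_2286, Control_2288, Control_2289, Control_2668, Model_1337, Model_1341 and every AKK library but AKK_1303 in AKK against Control.

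In Model against Control, members called higher numbered 6 on quantile normalized log2(FPKM + 1), 7 on log2(FPKM + 1), 12 on log2(FPKM + 0.1), 3 with only the groups compared and 9 without Control_2288 and Control_2289; members lower numbered 2 by DESeq2 and 2 without a filter. Genes higher numbered 1001, 1226 (log2(FPKM + 1)), 631 (groups compared) and 903 (without both Control libraries), and genes lower 699 with totals only, 801 without a filter, 655 and 650 by limma with 1 and 0.1 added, 230 with the groups compared and 522 without both Control libraries.

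In AKK against Model, genes higher numbered 11 and genes lower 5 by DESeq2; genes higher numbered 1 with the groups compared, 0 without libraries above 70000000 counts, 1 without Model_1337 and Model_1341, and 5 without both Control libraries.

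In AKK against Control, members higher numbered 6 by DESeq2, 1 each with totals only, quantile normalization, no filter and log2(FPKM + 1), 8 with the groups compared, 0 without libraries above 70000000 counts and 8 without both Model libraries. Members lower numbered 2 by DESeq2, 2 with the groups compared, 0 without the largest libraries, 2 without both Model libraries and 0 without both Control libraries. Genes higher numbered 1094 (DESeq2), 317 (quantile), 293 (no filter), 1566 (groups compared), 48 (without the largest libraries), 1421 (without both Model libraries) and 137 (without both Control libraries). Genes lower numbered 1036 (DESeq2), 89 (totals only), 85 (no filter), 82 and 80 (limma with 1 and 0.1 added), 1374, 1, 1349 and 48 in the last 4 settings.

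Among the fold changes recomputed for the members described in each comparison, signs turned for 7, none of them called (over all 58 tested members, 15 turned in AKK against Model without Model_1337); each range given is over the omissions of 1 library. In Model, Il1b ranged from -0.0984 (without Model_1337) to 1.84, Il6 from -0.1266 to 1.39, being -0.097, -0.0574, -0.1266 and -0.1197 without Control_2285, Control_2287, Control_2668 and Model_1337 and -0.104 without both Model libraries, and Il23a from -0.2728 to 0.2539 (without Control_2288). Il23a was also 0.0037 with totals only, 0.0042 and 0.0648 by limma with 1 and 0.1 added and 0.5209 without both Control libraries. In AKK against Model, Il1b ranged from -1.41 to 0.4983, Il1f9 from -4.06 to 0.3587, Il1r1 from -0.2434 to 0.1604 and Il1r2 from -2.11 to 0.102, each highest without Model_1337. Without both Model libraries Il1b was 0.2808, Il1f9 0.073 and Il1r1 0.0207, and Il1r1 was 0.0127 and 0.0257 by limma with 1 and 0.1 added. Of the single members' other values, 1373 kept side and sign, 176 lost a call and 35 gained one. The cause of these shifts was not tested. Members under 1 FPKM rest on few fragments, and folds on log2(FPKM + 1) understate their change.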

Other observations

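IL-15, a cytokine that sustains intraepithelial and natural killer lymphocytes, and its presenting receptor chain went the other way from most members, though neither was called with all 18 libraries. Il15 had lowest, median and highest values of 2.92, 7.08 and 11.3 FPKM in Control, 4.17, 4.57 and 7.78 in Model and 3.09, 4.37 and 6.62 in AKK. All 6 AKK libraries lay below the Control median, with log2 fold changes of -0.47 ± 0.27 (SE; edgeR adjusted p = 0.237) in Model and -0.81 ± 0.28 (0.0918) in AKK, the latter called without Control_2289 (0.0381). Il15ra read 2.41, 2.80 and 4.58 FPKM in Control, 2.00, 2.35 and 3.01 in Model and 2.04, 2.48 and 3.13 in AKK. Its log2 fold change was -0.49 ± 0.17 in both comparisons, with edgeR adjusted p values of 0.054 in Model and 0.0957 in AKK. The Model difference was called in 3 of 18 omissions of 1 library (without Control_2668, where the adjusted p was 0.0294, Model_1339 or Model_1341). The highest Control values of Il15ra were 4.58 FPKM in Control_2288 and 4.24 in Control_2289. Without both, its log2 fold change was -0.20 (edgeR adjusted p = 0.383) in Model and -0.19 (0.487) in AKK.

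Ratios of FPKM within each library set a cytokine beside its inhibitor and a receptor beside its decoy. Il18 over Il18bp had lowest, median and highest ratios of 1.47, 2.82 and 9.44 in Control, 1.96, 4.89 and 15.5 in Model and 3.42, 7.29 and 16.3 in AKK. Il1b over Il1rn had 0.491, 1.30 and 3.21 in Control, 0.305, 0.977 and 4.72 in Model and 0.50, 0.87 and 2.82 in AKK. Il1r1 over Il1r2 had 4.64, 9.68 and 18.05 in Control, 0.679, 10.4 and 17.8 in Model and 4.18, 5.80 and 13.7 in AKK, with the lowest Model value in Model_1337. The groups overlapped for all 3 ratios, and no test was made.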
